A study of Mus musculus with 44 samples.

Results

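The 10 genes described here encode receptors for peptides that govern arousal, pain, reward and feeding: the orexin receptors Hcrtr1 and Hcrtr2, the opioid receptors Oprm1, Oprk1, Oprd1 and Oprl1, and the feeding peptide receptors Ghsr, Npffr1, Npy1r and Mc4r. They were chosen by name and are 10 of 21887 protein-coding genes. A chromatin peak was counted for a receptor when it overlapped the gene's span in mm10, widened by 5000 bp at each end. The mutant animals were adult Polg(D181A) mice, in which the DNA polymerase of mitochondria is mutated, and their controls were adult wild-type (WT) mice, both of strain C57BL/6 for H3K27ac and RNA. As background that the labels do not give, the mutant polymerase is a transgene under the CaMKIIα promoter, which is active in forebrain neurons. H3K27ac, the acetylated histone that marks regulatory DNA in use, was read in NeuN-stained, sorted nuclei from the nucleus accumbens (NAC), the caudate putamen (CP), the cortex (COR) and the paraventricular thalamic nucleus (PVT), each with 2 Polg and 2 WT libraries. Open chromatin was read by ATAC-seq on sorted PVT nuclei, with 2 Polg libraries (labelled C57BL/9 and C57BL/10) and 2 WT libraries (labelled C57BL/7 and C57BL/8), so that strain label and genotype cannot be told apart there. The number in these labels rises from library to library, unlike the constant C57BL/6 of H3K27ac and RNA. Whether the ATAC labels name different strains is therefore not known. Total RNA of the PVT was counted in 20 libraries, 4 in each of 5 groups: Polg depressive COX-, Polg depressive COX+, Polg euthymic COX-, Polg euthymic COX+ and WT euthymic COX+. COX is staining for cytochrome c oxidase, an enzyme of the respiratory chain, and the states are the behavioural states of the labels. No WT group was depressive or COX-.

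All of these proteins are G protein-coupled receptors of the cell surface. Orexin receptors act mainly through Gq and excite neurons, and the PVT is a dense target of orexin fibres from the hypothalamus. Opioid and nociceptin receptors act through Gi and Go, open inwardly rectifying potassium channels, close calcium channels and so quiet neurons. Ghsr binds ghrelin, a hormone of hunger, Npy1r binds the feeding signal neuropeptide Y, Npffr1 binds RFamide peptides that oppose opioid action, and Mc4r, which raises cyclic AMP, restrains feeding.

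RNA libraries held between 26719334 and 115285349 counts, and the 8 highest loci each took over 5% of at least 1 library. RNA counts were higher for genes of longer genomic span (rank correlation across 20915 genes between 0.754 and 0.878 per library). H3K27ac totals within peaks lay between 52759552 and 146450422 in PVT and went down to 6415127 in NAC. Peaks without a read made up 7.10 to 13.8% of the PVT table per library, but up to 41.9% in COR, 80.8% in CP and 69.6% in NAC, each time in WT library 2. ATAC totals lay between 2932270 and 8040451. Polg RNA was between 0.555 and 198.4 CPM (counts scaled by effective library size, which includes TMM factors between 0.126 and 3.89 in the RNA) in the 16 Polg libraries and between 0.939 and 3.66 CPM in the 4 WT libraries. The 7 markers of PVT and midline thalamus all had H3K27ac peaks in PVT, with a summed 2619 to 3515 CPM per library, against 198 to 477 in COR, 274 to 1242 in CP and 294 to 825 in NAC, where Gbx2 had no peak. Habenula markers were also present in the PVT chromatin (4 of 5 genes, Tac2 without a peak, 194 to 295 CPM), against 7.99 to 37.6 CPM in COR, 0 to 31.002 CPM in CP and 31.6 to 78.1 CPM in NAC, and their part in the results was not tested. Glial markers had H3K27ac in PVT as well. Of the astrocyte markers 3 of 5 had a peak (106 to 126 CPM in sum, Aqp4 and Gja1 without one), and of the oligodendrocyte markers 3 of 5 (328 to 389 CPM over 51.6 kb, Mag and Sox10 without one), and their part was not tested either. The samples are bulk, so fewer cells of a type and less signal per cell cannot be told apart. Whether the libraries of a group stem from different animals is not stated in the labels, and p-values therefore reflect library-to-library spread, which may be technical.

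Promoter sequences of the receptors on which the results turn are given first, because the regions differed in which of these promoters carried a peak. Each is the 250 bases before a transcription start, 5′ to 3′ on the gene's strand, from RefSeq (GRCm38.p6, which is mm10), and 8 of the 10 receptors had one in the table. The Hcrtr1 window (chr4:130139163-130139412, minus strand, 1 of 3 for this gene) overlapped an H3K27ac peak in COR, CP and NAC and an ATAC peak in PVT, but no H3K27ac peak of PVT. The Hcrtr2 window (chr9:76323624-76323873, minus strand) overlapped an H3K27ac peak in PVT and COR. The Oprm1 window (chr10:6788320-6788569, plus strand) overlapped an H3K27ac peak in COR and NAC and an ATAC peak in PVT, with no H3K27ac peak in PVT. The Oprd1 window (chr4:132144487-132144736, minus strand) overlapped an H3K27ac peak in COR and NAC and no peak in PVT. The Npffr1 window (chr10:61595045-61595294, plus strand) overlapped an ATAC peak in PVT and no H3K27ac peak, and the Ghsr window (chr3:27371101-27371350, plus strand) no peak of any table. Over all 32817 such windows, 35.0% overlapped an H3K27ac peak in PVT, 32.4% in COR, 18.9% in CP and 31.9% in NAC, and 37.3% an ATAC peak in PVT. Capitals mark matches on either strand to the GC box GGGCGG (present in 32.7% of all windows) and the E-box CACGTG (6.02%). The motif TGACG, found within cyclic AMP response elements (17.7%) and TATAAA (12.4%) were searched too and are in none of these 6 windows.
Hcrtr1: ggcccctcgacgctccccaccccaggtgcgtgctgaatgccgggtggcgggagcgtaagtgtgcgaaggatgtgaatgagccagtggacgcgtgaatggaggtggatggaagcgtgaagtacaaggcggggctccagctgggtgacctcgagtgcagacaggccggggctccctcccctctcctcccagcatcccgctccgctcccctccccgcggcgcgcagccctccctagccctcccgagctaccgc
Hcrtr2: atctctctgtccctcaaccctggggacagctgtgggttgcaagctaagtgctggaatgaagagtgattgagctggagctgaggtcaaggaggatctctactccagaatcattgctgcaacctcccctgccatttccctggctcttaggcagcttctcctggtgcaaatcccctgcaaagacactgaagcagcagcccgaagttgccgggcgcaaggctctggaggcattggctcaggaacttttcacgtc
Oprm1: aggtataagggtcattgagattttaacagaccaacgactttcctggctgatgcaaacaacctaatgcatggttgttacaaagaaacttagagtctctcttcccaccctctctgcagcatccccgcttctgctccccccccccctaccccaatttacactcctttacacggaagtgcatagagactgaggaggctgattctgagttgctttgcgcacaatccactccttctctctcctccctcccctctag
Oprd1: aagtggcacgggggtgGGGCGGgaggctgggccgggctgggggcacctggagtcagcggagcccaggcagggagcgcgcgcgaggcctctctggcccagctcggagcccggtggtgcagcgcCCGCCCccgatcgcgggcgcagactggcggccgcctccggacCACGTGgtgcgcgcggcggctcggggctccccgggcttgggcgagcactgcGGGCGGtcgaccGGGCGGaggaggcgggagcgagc
Npffr1: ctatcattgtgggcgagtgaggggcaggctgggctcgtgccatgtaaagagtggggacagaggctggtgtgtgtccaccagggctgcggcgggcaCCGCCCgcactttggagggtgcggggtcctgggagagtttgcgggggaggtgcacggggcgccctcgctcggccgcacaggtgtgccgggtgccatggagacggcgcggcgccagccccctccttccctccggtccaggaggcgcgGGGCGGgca
Ghsr: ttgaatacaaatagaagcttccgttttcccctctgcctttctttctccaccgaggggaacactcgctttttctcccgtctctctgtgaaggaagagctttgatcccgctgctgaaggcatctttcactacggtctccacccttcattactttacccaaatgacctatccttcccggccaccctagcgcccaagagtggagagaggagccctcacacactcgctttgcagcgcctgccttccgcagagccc

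The Oprd1 window stood apart in base composition, with 80.0% G and C and 34 CpG sites, 4 GC boxes and 1 E-box. The Npffr1 window had 72.0% G and C, 22 CpG sites and 2 GC boxes. Hcrtr1 had 69.2% and 21 CpG sites. Hcrtr2 and Oprm1 had 55.2% and 50% G and C and 4 CpG sites each, and Ghsr had 54.0% and 11. A match describes letters only, and no match says nothing about the factor.

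In the H3K27ac of the brain regions, 8 of the 10 receptors had peaks in PVT, COR and CP and 8 in NAC, where Mc4r had 2 peaks and Hcrtr2 none. Ghsr had no peak within its widened span in any of the 5 tables, although 69.5 to 76.0% of protein-coding genes had one in each. Levels below are CPM of H3K27ac summed over the peaks of a gene, as mean ± SD over the 4 libraries of a region (2 Polg, 2 WT). Peaks were drawn separately in each region, so a sum also moves with the length called as peak, which is given beside it. Where all libraries of a region lay above or below all of another, the share of all genes that did so was not counted. Such separations describe the receptor only.

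Hcrtr1, the orexin receptor with a preference for orexin A, had its highest mean sum in PVT. Its PVT sums were 37.2 and 32.2 CPM in Polg and 50.3 and 52.4 CPM in WT. COR had 6.99 and 18.7 CPM in Polg and 27.2 and 12.6 CPM in WT. Every PVT library thus lay above every COR library, and the mean was 43.0 ± 9.9 CPM over 10.2 kb of peak in PVT against 16.4 ± 8.7 CPM over 3.83 kb in COR. NAC (10.2 ± 10.1 CPM) and CP (7.17 ± 7.87 CPM) followed, each with 1 peak of less than 1 kb, and COR and NAC, like NAC and CP, differed by less than either SD. The PVT sum was higher than the COR sum (log2 change 1.38, SE 0.41, adjusted p = 0.0354 by edgeR's quasi-likelihood test with Benjamini-Hochberg adjustment over all genes, called at an adjusted p under 0.05), among 27.8% of 14320 genes called, 12.9% higher and 14.9% lower in PVT. Most of it was a single peak (chr4:130123195-130131098) that reaches from the span of Pef1, a neighbouring gene, into the 3′ end of Hcrtr1. That peak held 75.5% of the PVT sum (32.5 ± 5.7 CPM over 7.90 kb). The other 2 PVT peaks, 1 of them at another promoter of the gene, held 10.5 ± 6.1 CPM over 2.27 kb, which overlaps the COR values. With peaks in other genes left out, an alternative chosen after seeing the data, the log2 change was −0.64 (adjusted p = 0.485). Per kb of peak, PVT had 4.23 ± 0.97, COR 4.27 ± 2.26, CP 10.7 ± 11.8 and NAC 11.8 ± 11.6 CPM, so PVT was not highest on that scale. The call against COR held in 10 of 18 alternatives.

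Hcrtr2, the receptor for both orexins, had 7 peaks in PVT over 4.37 kb. Its PVT sums were 59.5 and 67.3 CPM in Polg and 42.5 and 41.9 CPM in WT. Its COR sums were 27.5 and 45.7 CPM in Polg and 17.8 and 6.06 CPM in WT. The 2 regions overlapped only through the second Polg library of COR. The mean was 52.8 ± 12.6 CPM in PVT, 43.5 ± 37.8 in CP and 24.3 ± 16.8 in COR. CP libraries reached from 5.31 to 77.1 CPM and so spanned both other regions. The difference between PVT and COR missed the threshold narrowly (log2 change 1.28, SE 0.42, adjusted p = 0.050003), and it passed in 7 alternatives, among them DESeq2 (adjusted p = 0.0148). For Hcrtr1 the same comparison had 18 alternatives. The share of all genes that DESeq2 called between PVT and COR is not given. Per kb, PVT had 12.1 ± 2.9 CPM and COR 4.48 ± 3.10 CPM. The 2 strongest PVT peaks were one over the promoter printed above (chr9:76321895-76323841, 20.03 CPM) and one inside the gene (chr9:76247159-76248480, 19.1 CPM), and both overlapped an ATAC peak of PVT.

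**Figure D1:**
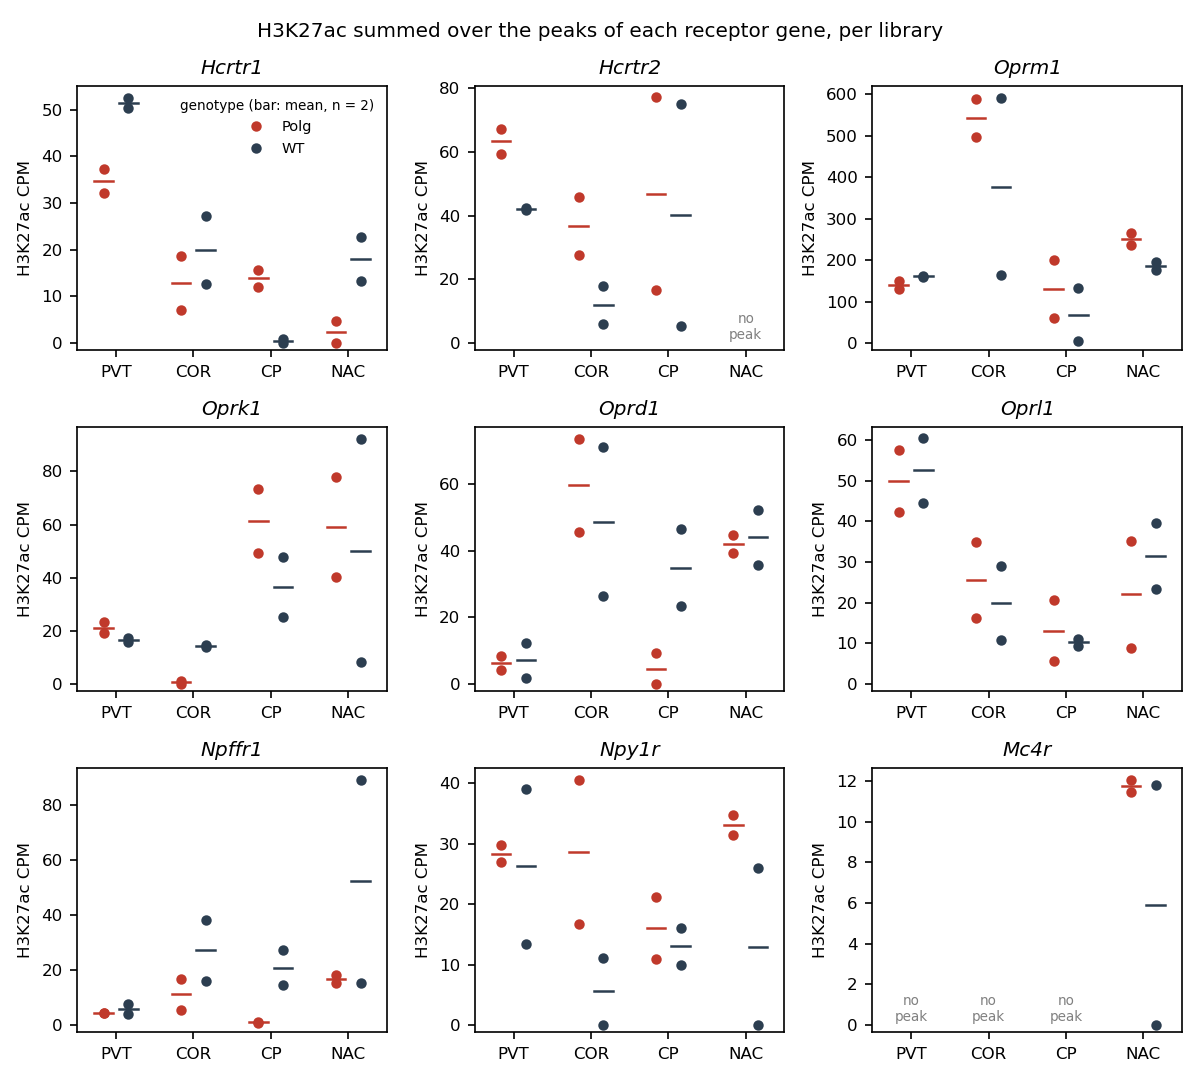
H3K27ac (CPM) summed over the peaks of each receptor gene in PVT, COR, CP and NAC, 1 panel per gene with its own vertical axis; points are libraries, Polg (red) left of WT (dark), and bars are means of 2. For Oprm1 the 4 libraries lie between 131.3 and 162.1 CPM in PVT and between 163.5 and 590.3 CPM in COR; Ghsr has no peak and no panel.

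Oprm1, the mu opioid receptor on which morphine acts, had the longest peak territory of the receptors in every table. Its PVT sums were 131.3 and 149.2 CPM in Polg and 162.1 and 160.2 CPM in WT. Its COR sums were 589.3 and 497.8 CPM in Polg and 590.3 and 163.5 CPM in WT. COR WT library 2 lay beside the PVT libraries, and the other 3 COR libraries far above them. Means were 150.7 ± 14.1 CPM over 17.0 kb in PVT, 460.2 ± 202.5 over 52.9 kb in COR, 218.0 ± 40.8 over 33.3 kb in NAC and 99.5 ± 85.3 over 6.26 kb in CP. The order was therefore COR, NAC, PVT and CP, and PVT and CP differed by less than the SD of CP. PVT was lower than COR (log2 change −1.62, SE 0.37, adjusted p = 0.0105). It was not called against NAC (log2 change −0.54, SE 0.18, adjusted p = 0.0662), where 23.2% of 13996 genes were called, nor against CP (0.64, SE 0.87, adjusted p = 0.729), where 9.34% of 13534 were.

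The direction of that cortical difference depended on whether peaks that also overlap a neighbouring gene were counted. To which gene those peaks belong was not tested. The 3′ part of the Oprm1 span overlaps Ipcef1, a gene on the opposite strand (Oprm1 chr10:6758593-7038209, Ipcef1 chr10:6885779-7054782). In COR, 22 peaks that overlap Ipcef1 held 89.5% of the Oprm1 sum, with 411.7 ± 190.9 CPM over 46.5 kb. The 8 COR peaks outside Ipcef1 held 59.6 and 33.8 CPM in Polg and 66.1 and 34.6 CPM in WT (48.5 ± 16.8 CPM, 6.39 kb). In PVT, 13 peaks outside Ipcef1 held 67.5 and 85.9 CPM in Polg and 93.2 and 89.1 CPM in WT (84.0 ± 11.4 CPM, 8.34 kb). Outside Ipcef1 every PVT library was thus above every COR library, the reverse of the whole sum. NAC had the most signal there (111.5 ± 18.4 CPM over 15.2 kb) and CP ranged from 0 to 152 CPM. In the fit without peaks in another gene, an alternative chosen after seeing the data, the log2 change of PVT over COR turned to 0.87 (SE 0.29, adjusted p = 0.0553). In the same fit COR became lower than NAC (log2 change −1.28, SE 0.35, adjusted p = 0.0470), and the share of all genes called in that fit is not given. With all peaks the change of COR over NAC was 1.01 (SE 0.34, adjusted p = 0.103), where 7.50% of 14133 genes were called.

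**Figure D2:**
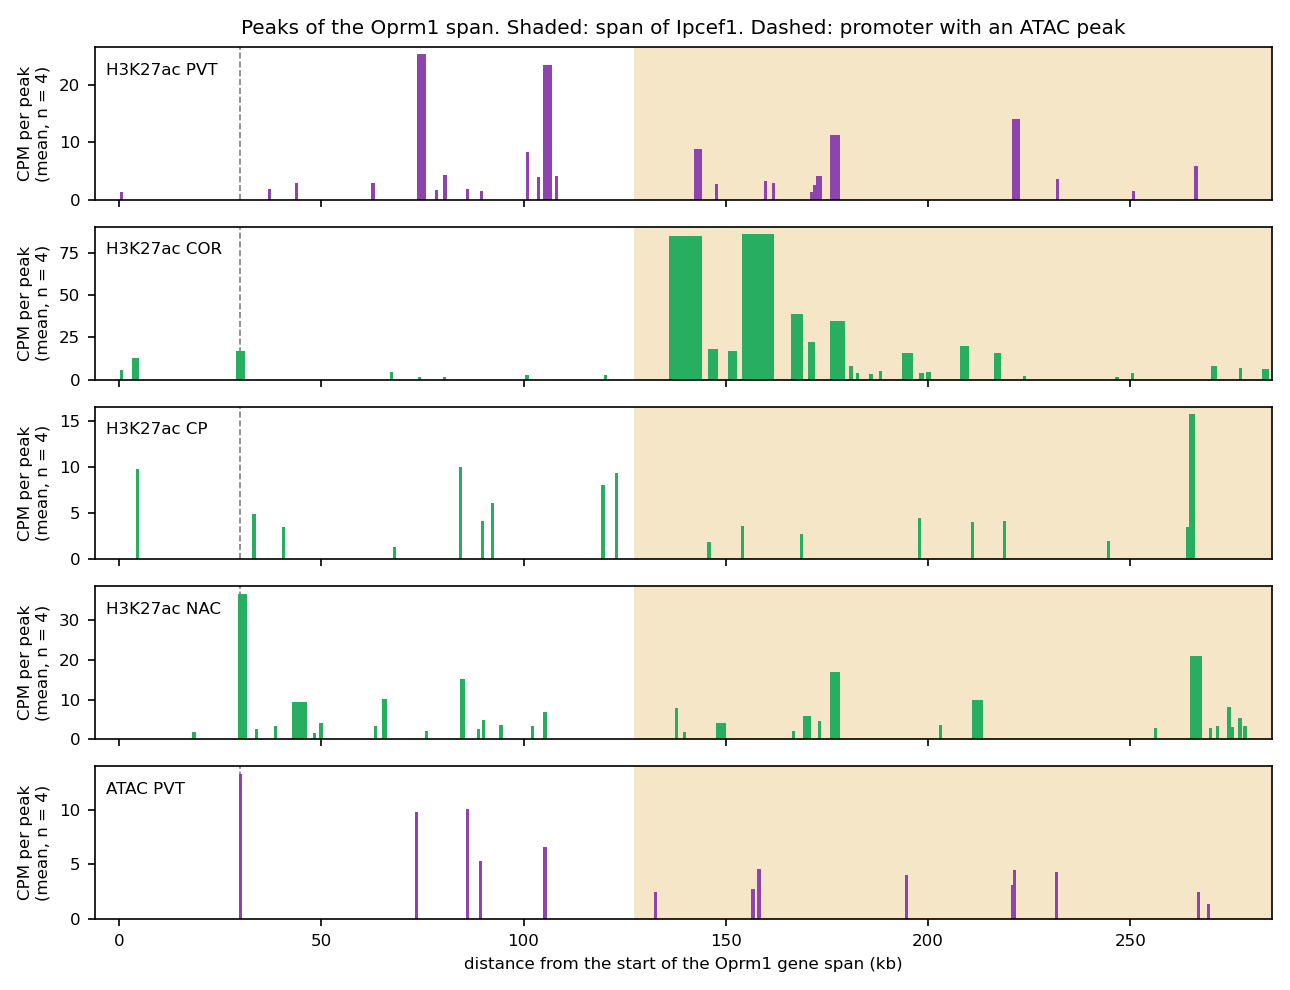
Peaks along the Oprm1 span, drawn to scale from the start of the span (horizontal axis, kb); bar height is the mean CPM of a peak over 4 libraries, 1 row per table with its own axis, PVT in purple and other regions in green; the shortest peaks are drawn wider than they are so that they can be seen. COR signal is concentrated in the shaded stretch shared with Ipcef1, while the strongest PVT peaks lie before it; the dashed line is the promoter with an ATAC peak in PVT and H3K27ac peaks in COR and NAC.

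At the promoter itself, Oprm1 had an ATAC peak in PVT (chr10:6788447-6788802) with 13.2 and 14.2 CPM in Polg and 12.1 and 13.9 CPM in WT. H3K27ac peaks over it were called in NAC (chr10:6788021-6790350, 36.8 CPM) and COR (chr10:6787465-6789740), and none in PVT. The 2 strongest H3K27ac peaks of Oprm1 in PVT lay inside the gene (chr10:6832173-6834473 with 25.4 CPM and chr10:6863377-6865552 with 23.5 CPM). Both overlapped ATAC peaks of PVT, so open chromatin and acetylation coincided at these intragenic sites and not at the promoter.

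Oprd1, the delta opioid receptor that enkephalins activate, had the least H3K27ac length in PVT of the 8 receptors with a peak there, 0.715 kb in 2 peaks. PVT sums were 4.16 and 8.55 CPM in Polg and 1.94 and 12.5 CPM in WT. COR sums were 73.5 and 45.8 CPM in Polg and 26.3 and 71.3 CPM in WT, and NAC sums 39.4 and 44.7 CPM in Polg and 35.7 and 52.4 CPM in WT. All PVT libraries lay below all COR and NAC libraries. PVT averaged 6.78 ± 4.68 CPM, against 54.2 ± 22.4 in COR over 6.602 kb and 43.0 ± 7.2 in NAC over 6.79 kb, and these last differed by less than the SD of COR. PVT was lower than COR (log2 change −3.01, SE 0.64, adjusted p = 0.0073) and lower than NAC (−2.69, SE 0.63, adjusted p = 0.0158), where 11.3% of genes were called lower in PVT. CP, with 19.8 ± 20.2 CPM over 0.892 kb, overlapped PVT. The PVT peaks lay at the 3′ end and beyond it, while the promoter printed above had a peak in COR (chr4:132142910-132145056) and NAC (chr4:132143566-132145603). Over peaks shared by PVT and NAC the change was −1.29 (adjusted p = 0.426). No Oprd1 peak of PVT overlapped one of COR, so no such value exists for COR. The PVT and COR sums thus cover different DNA. Per kb of peak, PVT had 9.48 ± 6.55, COR 8.21 ± 3.40 and NAC 6.34 ± 1.06 CPM.

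Oprk1, the kappa receptor for dynorphins, had its highest means in the striatal regions. Its sums were 54.7 ± 37.9 CPM in NAC, 48.8 ± 19.7 in CP, 18.9 ± 3.2 in PVT and 7.55 ± 8.00 in COR (n = 4 each). The striatal regions NAC and CP differed by less than their SDs. PVT against CP (log2 change −1.35, SE 0.57, adjusted p = 0.224) and against NAC (−1.58, SE 0.65, adjusted p = 0.122) did not pass. Without NAC WT library 2, the lowest NAC library of this gene at 8.27 CPM, the second did (−1.90, adjusted p = 0.0048). That library is named for its low value, and the other deletions are not given for Oprk1. Over all genes, leaving out 1 library called between 2227 and 4374 genes for PVT against NAC. A peak at the start of the gene was found in PVT (chr1:5588611-5590703), CP and NAC, with shorter ones in COR, and the ATAC peak of PVT (chr1:5588092-5588597) lay just beside it.

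Oprl1, the nociceptin receptor, had its highest mean sum in PVT. Its sums averaged 51.2 ± 9.1 CPM over 3.79 kb in PVT, 26.8 ± 13.8 over 3.95 kb in NAC, 22.8 ± 11.1 over 1.66 kb in COR and 11.7 ± 6.4 over 0.943 kb in CP. PVT libraries (42.2 to 60.5 CPM) lay above every library of the other regions, of which NAC reached 39.7 CPM. No region difference of Oprl1 passed in the main fit (PVT against COR 1.16, SE 0.41, adjusted p = 0.0666, and against CP 2.12, SE 0.69, adjusted p = 0.109). DESeq2 called both (adjusted p = 0.0318 and 0.00217). It also called more genes than edgeR over all genes for PVT against CP, and its total against COR is not given. Nearly all the PVT signal was 1 peak over the promoters (chr2:181712484-181716118, 49.9 CPM).

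Npffr1, the receptor for RFamide-related peptides, had 1 peak in PVT, inside the gene (chr10:61625022-61625896). PVT sums were 4.50 and 4.52 CPM in Polg and 4.15 and 7.56 CPM in WT. NAC sums were 18.2 and 15.3 CPM in Polg and 15.4 and 88.9 CPM in WT. The groups did not overlap, and PVT (5.18 ± 1.59 CPM over 0.875 kb) was lower than NAC (34.4 ± 36.3 CPM over 2.82 kb, log2 change −2.54, SE 0.68, adjusted p = 0.0290). The call held in 8 of 18 alternatives. It was lost without NAC WT library 2, the highest (−1.71, adjusted p = 0.0877), and without any 1 of the 4 PVT libraries (adjusted p between 0.0562 and 0.0926). COR (19.1 ± 13.6 CPM) and CP (10.95 ± 12.5 CPM) lay between and overlapped both.

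Npy1r, the neuropeptide Y receptor that drives feeding, did not separate the regions. It had 27.3 ± 10.6 CPM in PVT, 23.0 ± 15.7 in NAC, 17.1 ± 17.1 in COR and 14.5 ± 5.1 in CP, and no pair of neighbours in this order differed by more than the larger SD. Its promoter window overlapped a peak in PVT, CP, NAC and the ATAC table. Mc4r, the melanocortin receptor that limits food intake, had H3K27ac in NAC alone (11.5 and 12.04 CPM in Polg, 11.8 and 0 CPM in WT, over 1.73 kb), with 1 ATAC peak in PVT.

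Among the tested receptors, the PVT to COR comparison thus called 1 of 8 higher (Hcrtr1) and 2 lower (Oprm1 and Oprd1), and the PVT to NAC comparison 2 of 7 lower (Oprd1 and Npffr1). PVT against CP, COR against CP (2.65% of 13642 genes called), COR against NAC and NAC against CP (0.00747% of 13394) called 0 receptors. In that order, 2, 1, 2 and 0 receptors had an unadjusted p under 0.05, of 8, 8, 7 and 7 tested. Over all genes, 20.9, 12.8, 21.03 and 6.09% had such a p, in the same order. The receptor counts were not tested against these shares. DESeq2 called 6, 3, 4, 2, 2 and 0 receptors for PVT against COR, CP and NAC, COR against CP and NAC, and NAC against CP. It also called more genes than edgeR over all genes in every pair whose DESeq2 total is given below. That total is not given for PVT against COR, so these counts describe the tool and are not a result about the receptors. With the covered peak length as an offset, which compares signal per length, 0 receptors and 0 of 14320 genes were called between PVT and COR, and 0 of 13996 between PVT and NAC. On that scale Hcrtr1, Oprm1 and Oprd1 were within 0.19 of 0 on the log2 scale between PVT and COR (−0.03, 0.02 and 0.19), and Oprd1 was at 0.56 and Npffr1 at −0.85 between PVT and NAC.

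**Figure D3:**
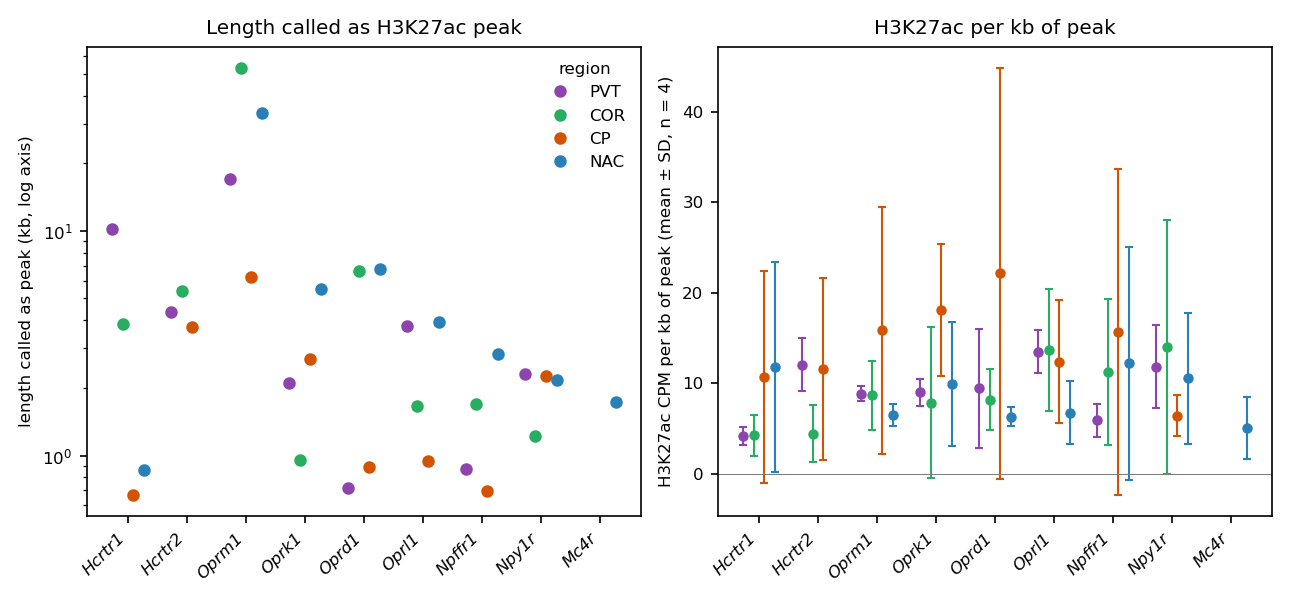
Length called as H3K27ac peak within each receptor's widened span (left, kb, log axis) and H3K27ac CPM per kb of peak (right, mean ± SD, n = 4 libraries) in PVT, COR, CP and NAC. Hcrtr1 covers 10.2 kb in PVT and 0.669 kb in CP, and Oprm1 52.9 kb in COR and 6.26 kb in CP, while the error bars per kb overlap between PVT and COR for Hcrtr1, Oprm1 and Oprd1.

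The genes whose summed H3K27ac followed a receptor most closely over the 16 libraries, among 12036 genes with peaks in all regions, were Hs3st1 and Adgrb2 for Oprm1 (Pearson r 0.969 and 0.966) and Rassf6 and Def8 for Hcrtr1 (0.925 and 0.917). They were Nudt6 and Klhl18 for Oprk1 (0.922 and 0.906), Brdt and Nbn for Oprd1 (0.870 and 0.866), Coq2 and Epha10 for Oprl1 (0.876 and 0.869), Inha and Impa1 for Npffr1 (0.901 and 0.856) and Zc3h10 and Plscr3 for Npy1r (0.910 and 0.891). These libraries share regions and depth, and the highest of 12036 values is high by selection, so the values describe likeness only.

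The comparison of Polg with WT asked whether the mutation altered receptor chromatin. No receptor sum passed the test in any of the 5 tables. The edgeR test on gene sums called 0 of 8 receptors in PVT, COR, CP and NAC each, and 0 of 9 in the ATAC table, where over all genes 0% were called in each H3K27ac table (0 of 15670, 15522, 13269 and 14662) and 0.0121% of 16576 in ATAC. At an unadjusted p under 0.05 there was 1 receptor, Hcrtr2 in PVT, and DESeq2 called 0 receptor sums in any of them. Over all gene sums, 8.09% in PVT, 5.66% in COR, 2.26% in CP, 3.48% in NAC and 3.87% in ATAC had an unadjusted p under 0.05. Of 221 receptor peaks 203 were tested and 0 called by edgeR, against 0% of all peaks in PVT, COR and CP, 0.00286% in NAC and 0.00114% in ATAC. DESeq2 called 3 receptor peaks in PVT, 7 in COR, 14 in CP, 1 in NAC and 0 in ATAC, with 13187, 37716, 40171, 2204 and 3 peaks called in the whole tables.

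In PVT the orexin receptors differed between genotypes in opposite directions, without passing. Hcrtr2 had 59.5 and 67.3 CPM in Polg and 42.5 and 41.9 CPM in WT (log2 change 0.59, SE 0.24, adjusted p = 0.587). Hcrtr1 had 37.2 and 32.2 CPM in Polg and 50.3 and 52.4 CPM in WT (log2 change −0.57, SE 0.27, adjusted p = 0.621). Neither gene's genotypes overlapped. Oprk1 was above WT in both Polg libraries as well (19.1 and 23.2 CPM in Polg, 17.4 and 15.9 CPM in WT, log2 change 0.34, SE 0.39, adjusted p = 0.835), and Oprm1 below it (log2 change −0.20, SE 0.16, adjusted p = 0.772). In PVT, 2 receptors lay above WT without overlap and 2 below, of 8. The counts were 2 and 1 in COR, 2 and 2 in CP, 2 and 1 in NAC (8 each) and 4 and 1 of 9 in ATAC. The edgeR test called 0% of genes in the H3K27ac tables and 0.0121% in ATAC. Genotypes without overlap were common among all genes with a peak, of which 20.8% lay above WT in both Polg libraries and 20.5% below in PVT, 18.6 and 19.01% in COR, 18.3 and 12.3% in CP, 23.0 and 14.8% in NAC and 15.99 and 16.1% in ATAC. The receptor counts are a description and are not set apart from these shares by any test.

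**Figure D4:**
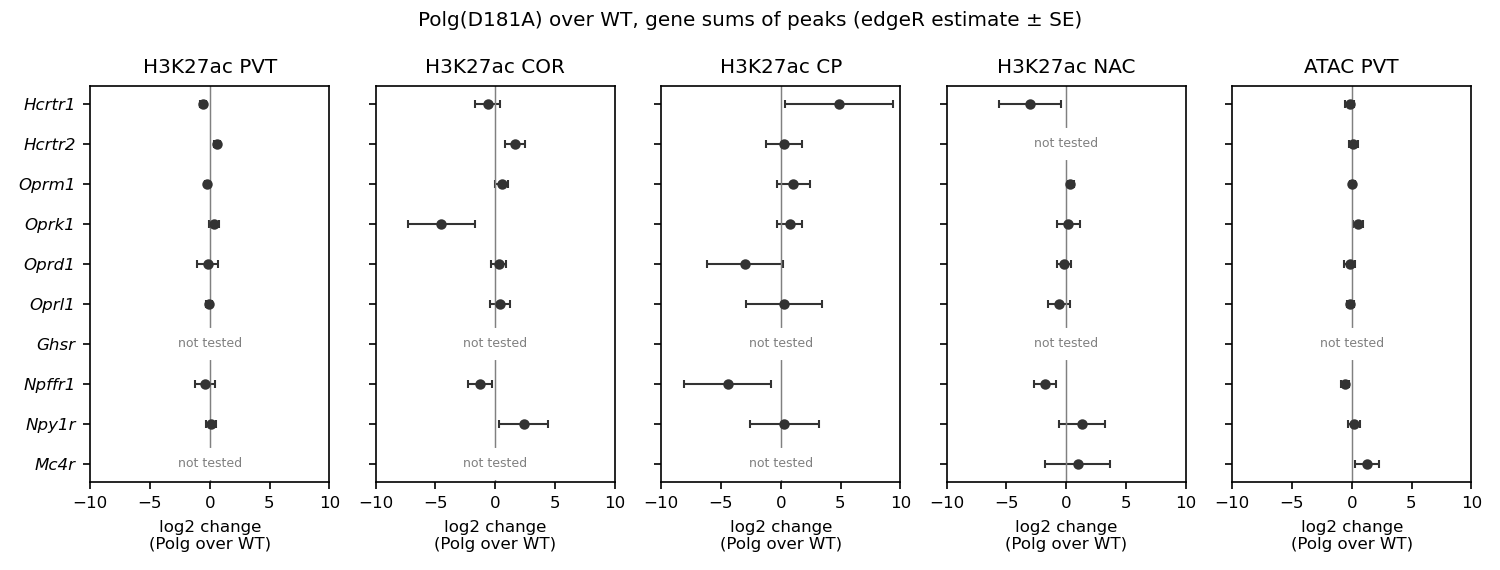
Log2 change of each receptor's summed peak counts, Polg(D181A) over WT, with its SE from edgeR, in the 4 H3K27ac tables and the ATAC table (2 Polg and 2 WT libraries each). For Oprm1 the SE is 0.16 in PVT, 0.53 in COR, 1.37 in CP, 0.33 in NAC and 0.22 in ATAC, and no receptor passed the adjusted threshold; receptors without a testable peak are marked.

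Open chromatin of the receptors in PVT was compared between the genotypes in the ATAC table. Oprm1 had 76.6 and 75.6 CPM of ATAC in Polg and 72.4 and 74.6 CPM in WT (log2 change 0.05, SE 0.22). Oprk1 had 19.03 and 17.9 CPM in Polg and 13.6 and 12.4 CPM in WT (0.50, SE 0.41), and Npffr1 had 21.8 and 19.7 CPM in Polg and 36.3 and 22.9 CPM in WT (−0.54, SE 0.32). Mc4r had 4.57 and 5.67 CPM in Polg and 0.724 and 4.13 CPM in WT (1.27, SE 0.99), again without overlap. For Hcrtr2 the ATAC sums were 19.03 and 23.4 CPM in Polg and 18.2 and 20.6 CPM in WT, so the genotypes overlapped, unlike its H3K27ac. The adjusted p was 0.9999 for all 9 receptors.

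Outside PVT the SEs of the log2 changes ranged between 0.33 (Oprm1 in NAC) and 4.51 (Hcrtr1 in CP), against 0.16 to 0.86 in PVT H3K27ac. In COR, Oprk1 had 0 and 1.27 CPM in Polg and 14.1 and 14.8 CPM in WT (log2 change −4.50, SE 2.83, adjusted p = 0.933), and Hcrtr2 was higher in both Polg libraries (1.63, SE 0.83, adjusted p = 0.866). In CP, Hcrtr1 had 12.1 and 15.6 CPM in Polg and 0.967 and 0 CPM in WT (4.90, SE 4.51, adjusted p = 0.9999). In NAC, Npffr1 had 18.2 and 15.3 CPM in Polg and 15.4 and 88.9 CPM in WT (−1.75, SE 0.94, adjusted p = 0.996). Without NAC WT library 1, 1453 genes were called there, among them Npffr1 (−2.45, adjusted p = 0.0494) and Npy1r (11.85, adjusted p = 0.0224). The remaining WT library had 0 reads over Npy1r and no reads in 69.6% of all peaks.

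Single receptor peaks were tested too, and 11 had an unadjusted p under 0.05. In PVT these were a peak inside Hcrtr1 (chr4:130131897-130133682) with 2.97 and 0.836 CPM in Polg and 8.11 and 11.1 CPM in WT, a peak inside Oprm1 (chr10:6838636-6839625) with 1.96 and 1.12 CPM in Polg and 6.53 and 7.88 CPM in WT, and a peak of 151 bp after Oprl1 with reads in the Polg libraries only (2.69 and 2.60 CPM). Each had an adjusted p of 0.556. In the ATAC table a peak near the start of Hcrtr2 (chr9:76322114-76322436) had 2.28 and 8.51 CPM in Polg and 0.241 and 1.13 CPM in WT (log2 change 3.19, SE 1.22, adjusted p = 0.798), and it overlapped the PVT H3K27ac peak over that promoter. Another 2 ATAC peaks lay in Oprm1 inside Ipcef1, 1 in each direction. The other 5 peaks were 1 in COR (Oprm1), 2 in CP (Oprm1 and Oprd1) and 2 in NAC (Npffr1 and Oprd1), with adjusted p between 0.373 and 0.984. Over all peaks, 8.09% in PVT, 9.29% in COR, 6.69% in CP, 1.196% in NAC and 6.13% in ATAC had an unadjusted p under 0.05.

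In PVT RNA, Oprm1 was the receptor with the highest level per length, and it alone had at least 100 counts in all 20 libraries. Its median was 78.8 CPM (0.282 CPM per kb of gene span), followed by Hcrtr2 (12.7 CPM, 0.130 per kb), Oprd1 (3.51 CPM, 0.102 per kb), Npffr1 (2.44 CPM, 0.0715 per kb) and Oprk1 (0.744 CPM, 0.0421 per kb). Hcrtr1, Oprl1, Npy1r, Ghsr and Mc4r were near the limit of detection, with medians between 0.0176 and 0.140 CPM and medians of 1 to 7 counts. For each of these 5, at least 12 of 20 libraries had fewer than 10 counts. Mc4r was at 0 in 9 libraries. Part of the Oprm1 span overlaps Ipcef1 on the opposite strand, and the strand and unit of RNA counting are not given. Whether the Oprm1 counts, and so its rank, include reads of Ipcef1 was not tested.

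Oprm1 varied widely within every group. It had 236.4, 190.9, 85.4 and 72.2 CPM in Polg depressive COX-, and 242.0, 40.7, 25.7 and 14.5 CPM in Polg depressive COX+. It had 351.5, 335.2, 11.8 and 6.85 CPM in Polg euthymic COX-, and 187.3, 113.2, 97.5 and 35.3 CPM in Polg euthymic COX+. WT euthymic COX+ libraries had 125.9, 71.0, 37.9 and 12.1 CPM. All 5 groups overlapped. Hcrtr2 reached 112.0 CPM in Polg depressive COX-, 15.5 in Polg depressive COX+, 2.75 in Polg euthymic COX- and 192.2 in Polg euthymic COX+, against 322.9, 20.9, 18.99 and 13.9 CPM in the WT libraries. The 4 Polg euthymic COX- libraries (1.18 to 2.75 CPM) lay below all 4 WT libraries, but those groups differ in genotype and COX class, and no test compares them here.

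**Figure D5:**
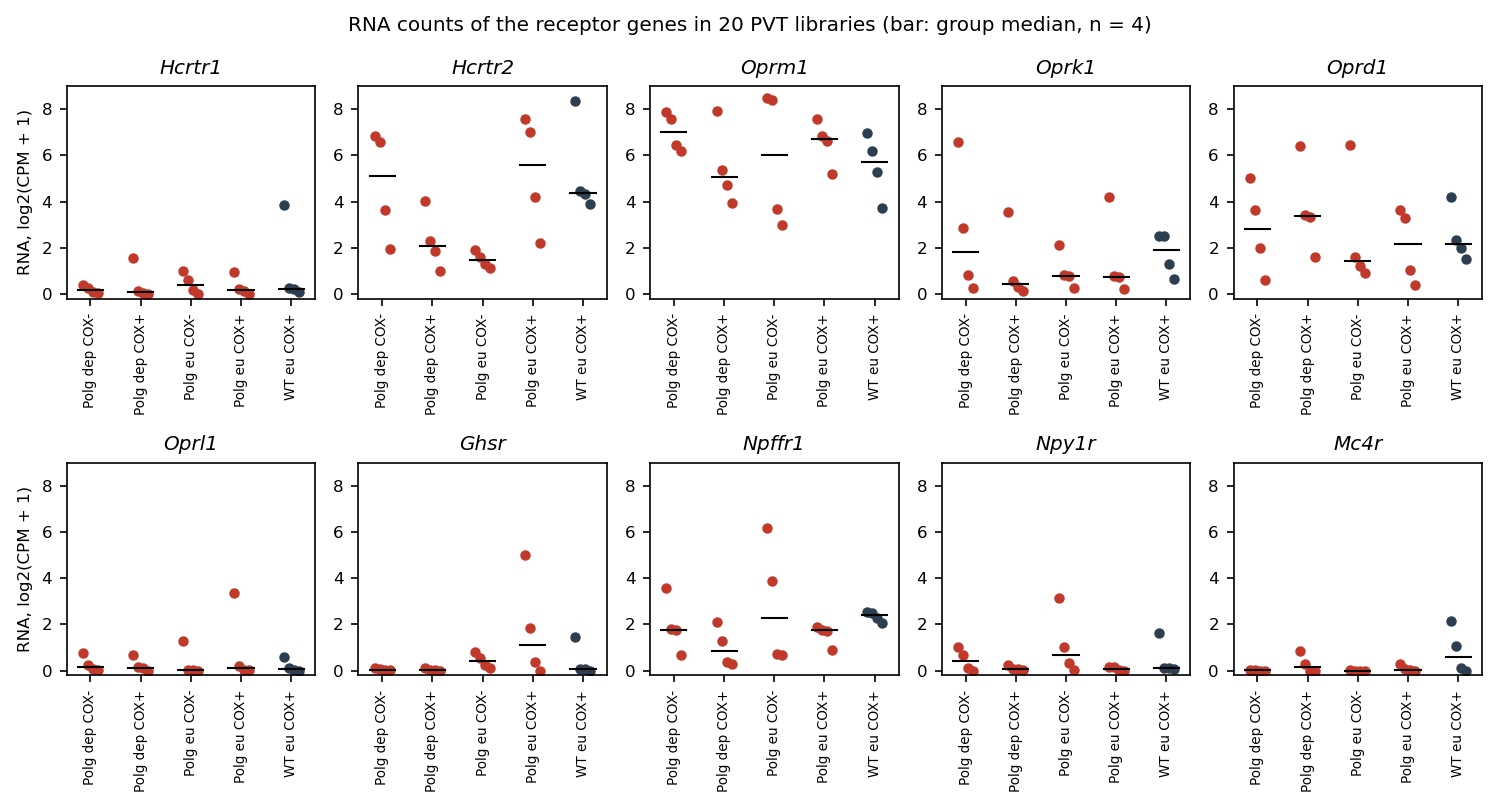
RNA of each receptor in the PVT, as log2(CPM + 1), in 20 libraries; groups from left to right are Polg depressive (dep) COX- and COX+, Polg euthymic (eu) COX- and COX+, and WT euthymic COX+, with 4 points each and a bar at the median. Oprm1 has the highest median over all libraries (78.8 CPM); for most others 1 library of a group stands far above its 3 companions.

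A single library often held most of a receptor's RNA. Over the 20 libraries, the highest one had 83.0% of the summed CPM of Ghsr, 69.4% of Hcrtr1, 69.4% of Oprl1, 63.5% of Oprk1 and 57.6% of Mc4r, against 15.3% of Oprm1. The library was not the same one for all genes. In WT, the library that was highest for Hcrtr1 (13.5 CPM, others at most 0.205) was also highest for Oprd1, while another was highest for Oprl1, Ghsr and Npy1r.

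Polg euthymic COX+ was compared with WT euthymic COX+ for the effect of genotype at one state and COX class. The edgeR test called 0 of 10 receptors, with 0% of 28446 genes called. The receptors of smallest p were Ghsr, with 31.5, 2.59, 0.303 and 0 CPM in Polg and 1.73, 0.0626, 0.0343 and 0 CPM in WT (log2 change 4.20, SE 1.83, adjusted p = 0.285), and Mc4r, with at most 0.219 CPM in Polg and 3.41, 1.06, 0.0705 and 0 CPM in WT (−4.00, SE 1.85, adjusted p = 0.303). For both the groups overlapped. DESeq2 called Ghsr (adjusted p = 0.0281). Oprm1 (0.81, SE 1.22, adjusted p = 0.771) and Hcrtr2 (−0.14, SE 1.37, adjusted p = 0.970) had SEs above 1 on the log2 scale.

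COX- was compared with COX+ within Polg, averaged over the states, and again 0 of 10 receptors were called, with 0% of all genes. Npy1r had the smallest p. It had 1.01, 0.614, 0.0712 and 0 CPM in depressive COX- and 7.70, 1.02, 0.245 and 0.0269 CPM in euthymic COX-, against 0.182, 0.0538, 0.0391 and 0.0323 CPM in depressive COX+ and 0.107, 0.102, 0.0217 and 0 CPM in euthymic COX+. The upper COX- libraries stood above all COX+ libraries and the lower ones among them (log2 change 3.86, SE 1.26, adjusted p = 0.0771, against 0.0094 with DESeq2). Mc4r (−3.48, SE 1.42, adjusted p = 0.138) and Npffr1 (2.51, SE 1.07, adjusted p = 0.157) were next, and DESeq2 called Npffr1 as well (adjusted p = 0.0213).

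Depressive was compared with euthymic Polg, averaged over the COX classes, and Ghsr, the ghrelin receptor, was the 1 receptor of 10 that passed. It fell in depressive libraries (log2 change −5.69, SE 1.42, adjusted p = 0.0485), where 1.24% of 28446 genes were called and 0.640% were called lower in depressive. Ghsr had 3, 2, 1 and 1 counts in depressive COX- and 3, 2, 1 and 0 counts in depressive COX+, against 27, 27, 6 and 1 counts in euthymic COX- and 2154, 226, 17 and 0 counts in euthymic COX+. No depressive library held more than 3 counts, and 6 of 8 euthymic libraries held more than that. In CPM the euthymic COX+ library with 2154 counts had 31.5 CPM, and 3 of the 4 WT euthymic libraries had 0, 2 and 3 counts, like the depressive ones. The adjusted p was the same as the smallest of all genes (0.0485), and the call held in 6 of 28 alternatives. It was lost without any 1 of the 16 Polg libraries, among them the highest (log2 change −4.04, adjusted p = 0.0739). With voom the change was −3.48 (adjusted p = 0.999). Ghsr has no H3K27ac or ATAC peak in PVT, so no chromatin value stands beside this change.

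The other 9 receptors were not called between states. Oprk1 (log2 change 1.81, SE 1.23, adjusted p = 0.397), Oprl1 (−2.10, SE 1.28, adjusted p = 0.335) and Npffr1 (−1.52, SE 1.04, adjusted p = 0.398) had the largest estimates, and Oprm1 (−0.35, SE 0.86) and Hcrtr1 (−0.37, SE 1.22) the smallest. The receptors' median log2 change was −0.36, against −0.06 over all genes, and 4 of 10 were positive.

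The ligands, further receptors and signalling partners of the same pathways, 42 genes, were counted by the same tests. Between genotypes, states and COX classes 0 of 36 to 39 tested genes were called in each table. Between PVT and COR, 7 of 36 were higher in PVT and 10 lower, where 12.9% of all genes were higher and 14.9% lower, and the signalling partners accounted for all 7 rises and 7 of the falls. Plcb4, a phospholipase C that Gq activates, had 857.3 ± 144.9 CPM over 101767 bp in PVT and 166.5 ± 60.6 CPM over 25447 bp in COR (log2 change 2.33, SE 0.27, adjusted p = 3.29e-04). It was higher in PVT than in CP (4.03, SE 0.57) and NAC (3.76, SE 0.49) too. Gnai1, an inhibitory G protein subunit through which opioid receptors signal, went the other way, with 24.2 ± 4.8 CPM over 2886 bp in PVT and 227.9 ± 57.5 CPM over 29956 bp in COR (−3.24, SE 0.23, adjusted p = 3.90e-05). Cacna1b, the calcium channel that opioid receptors close, was higher in PVT than in COR (1.201, SE 0.15), CP (2.42, SE 0.35) and NAC (1.58, SE 0.21).

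Further partners followed the regions. Against COR, Adcy5, an adenylyl cyclase (1.27, SE 0.16), and Arrb1, an arrestin (1.27, SE 0.21), were higher in PVT, and Npffr2, Plcb1 and the orexin precursor gene Hcrt were lower (log2 changes −3.27, −1.38 and −2.45). The Hcrt sums were 52.8 ± 12.9 CPM over 7058 bp in COR and 9.86 ± 1.36 CPM over 1447 bp in PVT. They include peaks up to 5000 bp outside the gene, and whether these belong to Hcrt or to a neighbour was not tested. Against CP, 7 of 36 were higher in PVT and 3 lower, where 3.81% of all genes were higher and 5.53% lower. Kcnj9, a channel subunit that Gi opens (2.70, SE 0.50), and the receptor kinase Grk2 (2.998, SE 0.55) were higher, and Adcy5 (−2.34, SE 0.19), Rgs9, a striatal regulator of G proteins (−4.50, SE 0.44), and Plcb1 (−1.68, SE 0.32) lower. Against NAC, 8 of 36 were higher and 5 lower, where 11.9% of all genes were higher and 11.3% lower. Among these were Kcnj9 (1.89), Grk2 (1.77), Rgs9 (−4.16), Adcy5 (−1.60), Gnai1 (−2.70) and Plcb1 (−1.18). COR was above CP for Kcnj6, Kcnj9 and Adcy8 (3.07, 2.70 and 2.23) and below it for Adcy5 and Rgs9 (−3.62 and −2.92), 3 and 2 of 37, where 1.11% of all genes were above and 1.55% below. COR was above NAC for 5 and below for 2 of 37, where 3.94% of all genes were above and 3.56% below, and NAC against CP called 0 of 37. These counts describe the list and are not a test of it. The same limits hold as for the receptors, since these sums move with the length called as peak and can include peaks in neighbouring genes.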

How the data were processed

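H3K27ac and ATAC peak tables and the RNA table were analysed as deposited. Per the submitters' processing notes, which give no versions, STAR, HOMER, featureCounts, Subread and DESeq2 were used with build mm10. For duplicate removal, peak threshold, strand and the counting of exons or whole genes, the step is not given in the sources used here. The values the authors deposited are whole-number counts of reads, per peak (1 set of peaks per table) and per gene. The 4 input libraries, which mix Polg and WT, were not used.

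Counts of peaks that overlap a gene span widened by 5000 bp were summed per gene. Tests used edgeR 4.0.16 (TMM, filterByExpr, robust quasi-likelihood fit) in R 4.3.3, with p adjusted by Benjamini-Hochberg over all features and a threshold of 0.05. Genotype was tested within a table, regions over 8 libraries of 2 regions, and RNA in 1 model of 5 groups. CPM uses all counts in peaks, or all RNA counts, with TMM factors. Alternatives used DESeq2 1.42.0, limma 3.58.1 (voom), other normalizations and filters, covered length as an offset and leaving out each library. All 10 receptors are named, and among the 42 pathway genes up to 4 called genes of smallest p in each direction. Of single peaks, that of smallest p per gene and table could be named, and peaks named for level or promoter position were chosen after their values were seen. Scripts were tested on simulated data. Gene symbols were matched for 53620 of 53715 RNA rows. Errors are SDs between libraries or SEs of the fit, and depth limits the precision of low counts. The receptors, lists and tests were chosen with earlier results of these data known. The RNA columns carry no replicate number.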

Additional observations from a re-analysis of the deposited data

Results flagged for a closer look

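In the RNA, 1 library of a group stood far from the other 3 in 19 of 50 sets of 4 (10 receptors in 5 groups). The rule flags about 1 in 20 sets when values are normally distributed. It was applied here to CPM without a log transform, so that rate need not hold. The share was 38.0% for the receptors, against 37.8% of 142230 sets over all tested genes. Values are CPM of the outlying library. Hcrtr1 had 1.93 in Polg depressive COX+ and 13.5 in WT, Hcrtr2 had 322.9 in WT, and Oprm1 had 242.0 in Polg depressive COX+. Oprk1 had 94.3 in Polg depressive COX-, 10.7 in Polg depressive COX+ and 17.5 in Polg euthymic COX+. Oprd1 had 83.4 in Polg depressive COX+, 85.5 in Polg euthymic COX- and 17.6 in WT. Oprl1 had 1.45 in Polg euthymic COX-, 9.19 in Polg euthymic COX+ and 0.512 in WT. Ghsr had 31.5 in Polg euthymic COX+ and 1.73 in WT. Npy1r had 0.182 in Polg depressive COX+, 7.70 in Polg euthymic COX- and 2.09 in WT. Mc4r had 0.0299 in Polg euthymic COX-, where the other 3 were at 0, so that a single read set it apart.

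In H3K27ac, the genotypes differed in opposite directions in 2 regions for 3 receptors, with both Polg libraries on one side of both WT libraries each time. The difference between regions was not tested. These were 3 of 8 receptors, against 19.9% of all 16922 genes with a peak in 2 or more regions. As differences of log2(CPM + 1), Polg minus WT, Hcrtr1 was at 3.32 in CP against −0.55 in PVT (3.88 apart) and −2.51 in NAC (5.83 apart). Oprm1 was at 0.44 in NAC against −0.20 in PVT (0.64 apart). Oprk1 was at 0.33 in PVT (3.57 apart) and 0.74 in CP (3.98 apart), against −3.24 in COR.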

How the results depend on the processing

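Of 2139 receptor values under alternatives, 2056 kept their side of the threshold, 138 of them with a change of sign while both values were under it, 44 lost and 32 gained the call, and 7 reversed. With covered length as an offset, those counted as reversed were Hcrtr1 PVT over COR (−0.0312, SE 0.41), Oprm1 PVT over COR (0.0203, SE 0.36), Oprd1 PVT over COR (0.19, SE 0.59) and Oprd1 PVT over NAC (0.56, SE 0.59). These changed sign and lost the call, with each estimate smaller in size than its SE (edgeR adjusted p between 0.914 and 0.998), so no effect in the other direction was shown. Without peaks in another gene, the values counted as reversed were Hcrtr1 (−0.64, not called) and Oprm1 (0.87, not called) PVT over COR, and Oprm1 COR over NAC (−1.28). The cause was not tested.

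Counts of called features depended on the tool. For Polg against WT, DESeq2 called 13187, 37716, 40171, 2204 and 3 peaks in PVT, COR, CP, NAC and ATAC, with 3, 7, 14 and 1 receptor peaks in the first 4, and 325, 1811, 1316, 700 and 1 gene sums. In CP, peaks called were 8 with total counts and 1 with no filter or a stricter one, and gene sums 4 with either filter. In NAC, peaks called were 11 with DESeq2 size factors, 119 with total counts and 29 with no filter. ATAC gene sums called were 0 with total counts and 1 with no extension of the span. Leaving out 1 library gave 0 to 9 gene sums in PVT, 0 to 5436 peaks and 0 to 1028 gene sums in CP, 0 to 201 peaks (0 to 1 of receptors) and 0 to 1453 gene sums (0 to 2 receptors) in NAC, and 0 to 4 peaks and 1 to 19 gene sums in ATAC.

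Between regions, the length offset left 0 genes for PVT over COR, 405 over CP and 0 over NAC, 0 for COR over CP, 1 over NAC and 0 for NAC over CP. Shared peaks left 1880, 310, 1413, 53 and 369 in the first 5 of these. WT libraries alone left 1321, 0, 674, 0, 0 and 0. DESeq2 called 3771 for PVT over CP, 5233 for PVT over NAC, 2051 and 2789 for COR over CP and NAC, and 931 for NAC over CP, where other settings gave 0 (no extension), 7 (without peaks in another gene), 27 (total counts) and 14 (DESeq2 size factors). Receptors called for PVT over COR were 0 with the offset, 6 with DESeq2, 5 with total counts and 0 in WT alone. For PVT over NAC they were 0 with the offset, shared peaks or WT alone, 1 with no extension and 4 with DESeq2. DESeq2 called 3 for PVT over CP, 2 for COR over CP and 2 for COR over NAC, where leaving out peaks in another gene gave 1. Leaving out 1 library gave 3071 to 4494 genes (2 to 5 receptors) for PVT over COR, 707 to 2774 (0 to 2) over CP and 2227 to 4374 (0 to 3) over NAC, 108 to 844 for COR over CP, 604 to 1245 (0 to 1) over NAC and 0 to 32 for NAC over CP. Hcrtr1 lost its call without any PVT library or COR Polg library 1, Oprm1 without COR WT library 1 (−1.27, adjusted p = 0.0574, edgeR) and Oprd1 over NAC without PVT Polg library 1 (adjusted p = 0.0508). Npffr1 over NAC lost it without any PVT library (adjusted p 0.0562 to 0.0926) or NAC WT library 2 (0.0877).

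In RNA, DESeq2 called 1166 genes for Polg against WT (1 receptor), 2193 for COX- against COX+ (2 receptors) and 2141 for depressive against euthymic. With no filter these were 2, 1628 and 1887. For COX and state, DESeq2 size factors gave 377 and 780, total counts 73 and 19, a stricter filter 283 and 206, and leaving out the loci over 5% of a library 400 and 682. For state, voom, the groups of the contrast alone and detected genes as a covariate gave 0 genes and 0 receptors, and total counts and the stricter filter 0 receptors. Leaving out 1 library gave 0 to 713 genes (0 to 1 receptors) for state.

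Libraries with the same number showed little shared deviation (correlations between −0.068 and 0.040 for genotype and −0.035 and 0.114 for regions). Each group gives a single difference between its libraries, so whether libraries with the same number share an animal or a batch cannot be told from these values. The replicate block gave 10 peaks in COR, 1 peak and 3 gene sums in CP, 0 peaks in NAC, 2 peaks and 1 gene sum in ATAC, 778 genes for PVT over CP and 1 receptor for PVT over NAC. No paired analysis was possible for RNA because its columns carry no replicate numbers. Low depth in CP and NAC and counts under 10 for 5 receptors in most RNA libraries limit what can be detected.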
